A study of Mus musculus with 9 samples.

Results

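A group of 9 genes of glutamine, glutamate and proline metabolism was followed through RNA-seq libraries of mouse iTreg, regulatory T cells induced in culture from other T cells. The members were Gls2, Glul, Glud1, Got1, Got2, Gpt2, Aldh18a1, Oat and Pycr1, taken by symbol from the row names of the count table, where all 9 were found among 28111 rows. The libraries came from C57BL/6J mice. Glut1Tg iTreg, which carry a transgene for the glucose transporter Glut1 (gene Slc2a1), gave 4 libraries, and control iTreg (WT) gave 5. A second label, mouse group, split them again. Mouse group 2 held Glut1Tg replicate 1 and WT replicates 2, 4 and 5, and mouse group 1 held Glut1Tg replicates 2, 3 and 4 and WT replicates 1 and 3. The sources used here do not give what the mouse groups stand for, which promoter and cell type drive the transgene, how old the mice were, their sex, or how the cells were cultured. The labels do not say that libraries of a genotype came from separate animals or cultures, so every p-value below measures the spread between libraries, which may be technical.

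Glutamine enters T cells through amino acid carriers and is turned into glutamate by glutaminases, while glutamine synthetase runs the opposite way. Glutamate then gives oxoglutarate to the tricarboxylic acid cycle, either by glutamate dehydrogenase or by transaminases, which pass its amino group to another carbon chain and so make aspartate or alanine. Glutamate is also the start of proline: a synthase makes pyrroline-5-carboxylate, a reductase turns that into proline, and ornithine aminotransferase joins the route from the arginine side. Activated T cells are known for a high use of both glucose and glutamine, and the transgene of this study acts on the glucose side.

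The promoter windows of 4 members are shown first because these genes carry the results below: Got1 and Oat had the most alike pattern across libraries, Aldh18a1 differed most clearly between mouse groups, and Pycr1 is the other proline gene with a searched motif. Windows came from RefSeq (GRCm38.p6), each with 250 bases before and 50 bases after the start site, and 8 of the 9 members matched one (Gls2 had none). A pair of letter patterns was searched on both strands: TGATGNAA, the form of element through which the amino acid response factor ATF4 is known to act, and the E-box CACGTG, the letters bound by MYC and related factors. Capitals mark a match, and positions count from the start site, with −1 the base before it. The matches do not overlap each other.
Got1: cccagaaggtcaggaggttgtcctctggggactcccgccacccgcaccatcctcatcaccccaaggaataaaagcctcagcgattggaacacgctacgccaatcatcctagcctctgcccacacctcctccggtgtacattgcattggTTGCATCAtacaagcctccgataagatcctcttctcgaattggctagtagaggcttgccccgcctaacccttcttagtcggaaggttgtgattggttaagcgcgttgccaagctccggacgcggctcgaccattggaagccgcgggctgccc
Oat: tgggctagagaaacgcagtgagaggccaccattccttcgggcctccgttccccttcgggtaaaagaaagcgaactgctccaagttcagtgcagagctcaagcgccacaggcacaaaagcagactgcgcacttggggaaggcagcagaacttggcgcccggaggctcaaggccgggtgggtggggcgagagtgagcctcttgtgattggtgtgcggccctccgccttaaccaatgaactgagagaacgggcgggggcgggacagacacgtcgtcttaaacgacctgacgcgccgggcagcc
Aldh18a1: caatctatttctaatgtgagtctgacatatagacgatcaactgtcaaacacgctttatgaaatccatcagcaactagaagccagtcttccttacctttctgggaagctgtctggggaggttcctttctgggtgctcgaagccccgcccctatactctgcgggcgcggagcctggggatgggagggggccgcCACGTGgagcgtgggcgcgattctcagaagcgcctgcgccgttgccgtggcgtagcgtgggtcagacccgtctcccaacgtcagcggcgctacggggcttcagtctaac
Pycr1: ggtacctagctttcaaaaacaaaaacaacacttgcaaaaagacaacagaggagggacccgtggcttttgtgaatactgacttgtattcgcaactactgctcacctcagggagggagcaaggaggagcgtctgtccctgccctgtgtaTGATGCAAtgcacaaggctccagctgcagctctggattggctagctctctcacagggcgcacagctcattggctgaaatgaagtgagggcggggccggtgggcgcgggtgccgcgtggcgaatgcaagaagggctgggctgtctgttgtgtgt

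The Got1 window, chr19:43524556-43524855 on the minus strand, held the TGATGNAA pattern on the opposite strand (TTGCATCA) at −102 to −95. The Pycr1 window, chr11:120643699-120643998 on the minus strand, held it as TGATGCAA at −103 to −96. The Aldh18a1 window, chr19:40588414-40588713 on the minus strand, held CACGTG at −59 to −54. The Oat window, chr7:132576349-132576648 on the minus strand, held neither pattern, nor did those of Glud1, Glul, Got2 and Gpt2. Of 32851 windows of this length, 3.97% held TGATGNAA and 7.15% held CACGTG. These matches describe letters, not binding.

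Library totals ran between 20881035 and 31196428 counts, and 14817 genes had enough counts to be tested. Levels below are CPM, counts scaled to a common library total with TMM factors. Slc2a1, the gene of the transgene, averaged 373 ± 121 CPM in Glut1Tg and 42.1 ± 12.6 CPM in WT (SD, n = 4 and 5), a log2 fold change of 2.92 (SE 0.19, edgeR adjusted p = 0.000903). It was higher in every Glut1Tg library than in every WT library. Glut1Tg replicate 1 and WT replicate 2, both of mouse group 2, stood apart on the first principal component (50.7% of the variance) and had the most Mki67, a gene of dividing cells, at 1652 and 1621 CPM against 346 to 808 CPM in the other 7 libraries. Glut1Tg replicate 3 stood apart on the second (20.4%) and had 1670 CPM of Cpa3, a mast cell gene. Summed T cell markers lay between 3272 and 4599 CPM in Glut1Tg and between 3889 and 4306 CPM in WT. Summed regulatory T cell markers lay between 1927 and 5029 CPM in Glut1Tg and between 2401 and 4717 CPM in WT. Mast cell and basophil markers summed to between 6.62 and 2493 CPM in Glut1Tg and to between 4.67 and 759.9 CPM in WT, lowest in the pair apart on the first component. Myeloid markers summed to between 207 and 829 CPM in Glut1Tg and to between 246 and 441 CPM in WT. Of these, Ctss alone had 200 to 415 CPM over all libraries. Lyz2 had 207 CPM in Glut1Tg replicate 3 and at most 2.67 CPM elsewhere, and S100a9 had 77.8 CPM there and at most 0.862 CPM elsewhere. Platelet markers summed to between 3.33 and 1040.5 CPM in Glut1Tg and to between 3.53 and 267 CPM in WT. Proliferation markers summed to between 868 and 4743 CPM in Glut1Tg and to between 1218 and 4668 CPM in WT. B cell and CD8 T cell markers were scarce, with CD8 markers summing to at most 9.71 CPM in Glut1Tg and 10.5 CPM in WT. The part of any of these in the results below was not tested, except where values without the libraries are given.

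Levels of different genes were compared per kilobase of exon (CPM per kb, mean and range over the 9 libraries). Glutamate dehydrogenase and glutamine synthetase led: Glud1 had 91.0 CPM per kb (79.9 to 103) and Glul 54.6 CPM per kb (39.2 to 62.7), without overlap between them. Next came 4 genes with ranges that overlap their neighbours': Oat with 39.6 CPM per kb (27.8 to 51.3), Got2 with 30.4 (21.6 to 48.1), Aldh18a1 with 24.2 (10.7 to 57.7) and Got1 with 22.4 (15.9 to 30.4). Within a library, Glul was above Oat in 8 of 9 libraries, Oat above Got2 in 8, Got2 above Aldh18a1 in 7 and Aldh18a1 above Got1 in 4. In Glut1Tg replicate 1, Glul (39.2 CPM per kb) was below Aldh18a1 (57.7), Oat (51.3) and Got2 (48.1). In WT replicate 2, Aldh18a1 (50.5) was also above Glul (49.0). A wide gap without overlap then separated Got1 from the 3 genes at the bottom. Gls2 had 0.523 CPM per kb (0.116 to 1.84), Gpt2 0.500 (0.169 to 1.04) and Pycr1 0.207 (0.0598 to 0.366). Gls2 was above Gpt2 in 3 of 9 libraries, and Gpt2 was above Pycr1 in all 9. With the longest transcript or the coding length in place of the exon union, Got2 stood above Oat and Gpt2 above Gls2, while Glud1, Glul and Pycr1 kept their ranks.

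**Figure D1:**
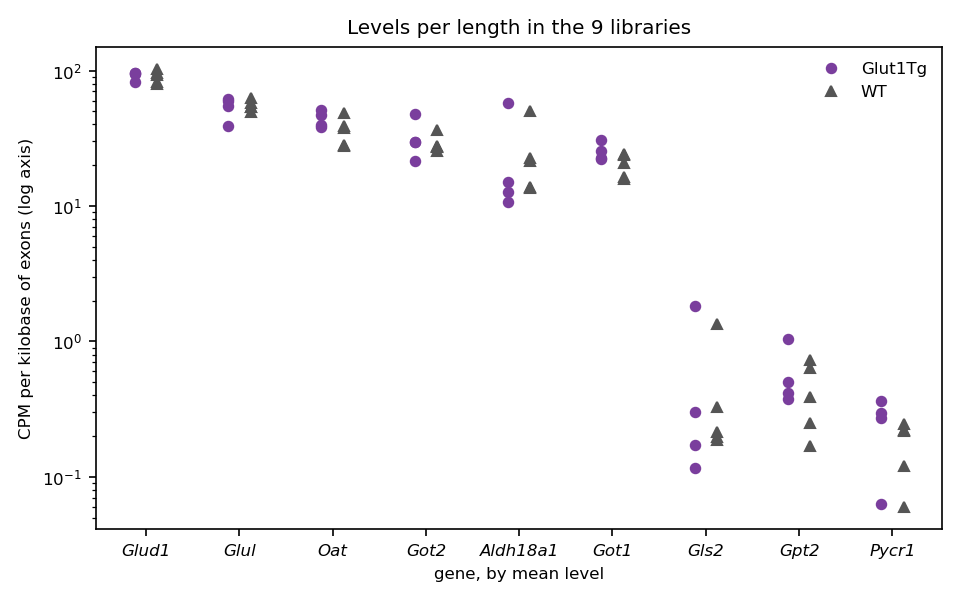
Level of each member in CPM per kilobase of exon on a log axis, 1 point per library, with circles for Glut1Tg and triangles for WT. Glud1 lies highest in every library and Glul is next by mean, though not in every library. Gls2, Gpt2 and Pycr1 lie far below the other 6 members in every library.

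The first comparison asked whether the glucose transporter transgene went with a difference in these genes. None of the 9 members differed between Glut1Tg and WT: 0 passed an adjusted p of 0.05 in edgeR's quasi-likelihood test with mouse group as a term, and 0 had an unadjusted p under 0.05. Over all genes tested, 0.00675% were called (1 gene, Slc2a1) and 6.00% had an unadjusted p under 0.05. DESeq2 and limma-voom called 0 members too. For every member the Glut1Tg and WT libraries overlapped in CPM, as they did for all but 1.59% of genes. The fold changes were positive for 8 members and negative for Glul, with a median log2 fold change of 0.29, beside 52.4% positive and a median of 0.02 over all genes. That lean rested on Glut1Tg replicate 1. Without it, 2 members were positive (Got1 and Oat) and 7 negative, with a median of −0.04. In simulated counts with these libraries' sizes and no mouse group difference, 200 genes drawn from all those tested were changed. The same test called 12.5% of them at 2-fold and 73% at 4-fold, a rate for genes at large and not for the members. The members' own 95% intervals of the fold ended at 1.23 for Glud1, 1.07 for Glul, 1.66 for Got1, 1.60 for Got2, 1.95 for Aldh18a1 and 1.67 for Oat. They reached beyond 2-fold for Gls2 (4.18), Gpt2 (2.30) and Pycr1 (3.24). In bulk RNA, fewer cells of a type and less RNA per cell cannot be told apart.

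**Figure D2:**
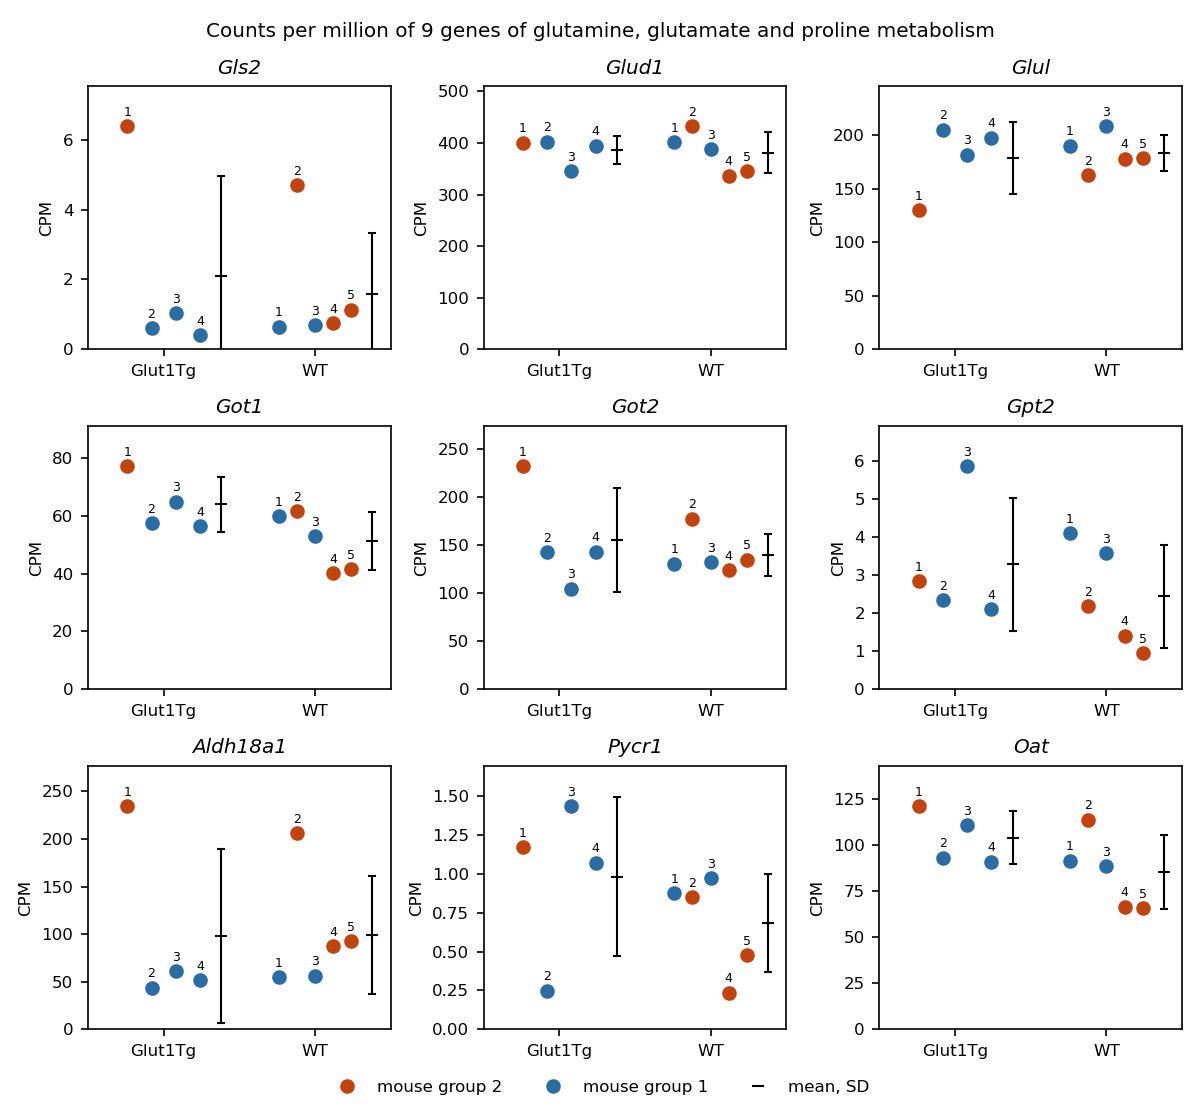
CPM of each member in each library, 1 panel per gene, with Glut1Tg left and WT right, the replicate number above each point, mouse group by colour, and the group mean with its SD at the side. The genotypes overlap in every panel, and Glut1Tg replicate 1 and WT replicate 2 lie far above the rest for Gls2 and Aldh18a1.

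Among the enzymes that make and use glutamine, Glud1 (chr14:34310727-34345265, plus strand), the mitochondrial glutamate dehydrogenase, was the steadiest member. It had 401, 403, 346 and 395 CPM in the 4 Glut1Tg libraries and 401, 433, 388, 336 and 346 CPM in the 5 WT libraries. The groups overlapped, and WT reached both lower and higher. The fold of Glut1Tg over WT was 1.01 (95% interval 0.825 to 1.23, edgeR adjusted p = 0.980).

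Glul (chr1:153899944-153909723, plus strand), glutamine synthetase, had 130.1, 205, 182 and 197 CPM in Glut1Tg libraries and 190.3, 163, 208, 178 and 178 CPM in WT libraries. Glut1Tg replicate 1 was the lowest of all 9 and WT replicate 2 the lowest of WT. Its log2 fold change was −0.18 (SE 0.12, edgeR adjusted p = 0.682). The quotient of Glul over Glud1 per kb was 0.412 in Glut1Tg replicate 1 and 0.477 in WT replicate 2, and it was at least 0.601 in each of the other 7 libraries.

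Gls2 (chr10:128194457-128210004, plus strand), the glutaminase known as a p53 target, was scarce in most libraries. It had 6.39, 0.597, 1.04 and 0.402 CPM in Glut1Tg libraries and 0.646, 4.71, 0.690, 0.745 and 1.13 CPM in WT libraries, from 12 to 169 reads. One library of each genotype was high, Glut1Tg replicate 1 and WT replicate 2, the same pair that had the most Mki67. Its log2 fold change was 0.71 (SE 0.60, edgeR adjusted p = 0.709), a fold between 0.641 and 4.18. The sources used here do not say whether counting used the strand, so reads from Spryd4, which overlaps 2.79% of the Gls2 exon length on the other strand, cannot be told apart. Glul shares 3.49% of its exon length with Teddm2 in the same way.

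Among the transaminases, Got1 (chr19:43499752-43524605, minus strand) is the cytosolic aspartate transaminase. It had 77.3, 57.5, 65.0 and 56.5 CPM in Glut1Tg libraries and 60.0, 61.7, 53.0, 40.3 and 41.6 CPM in WT libraries. The lowest pair was WT replicates 4 and 5, and the highest library was Glut1Tg replicate 1. The log2 fold change was 0.32 (SE 0.18, edgeR adjusted p = 0.681), and the fold of 1.25 had an interval of 0.941 to 1.66.

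Got2 (chr8:95864134-95888547, minus strand), the mitochondrial partner of Got1 in the malate-aspartate shuttle, had 232, 143, 104 and 143 CPM in Glut1Tg libraries and 130.4, 177, 132, 124 and 134 CPM in WT libraries. Both the highest and the lowest library were Glut1Tg, replicates 1 and 3. Its log2 fold change was 0.26 (SE 0.19, edgeR adjusted p = 0.682). The predicted gene Gm45760 overlaps 9% of its exon length on the other strand, and its pseudogene Got2-ps1 has a row of its own, so some reads could be split between them. The quotient of Got2 over Got1 per kb was 1.58, 1.31, 0.845 and 1.33 in Glut1Tg libraries, against 1.14, 1.51, 1.31, 1.62 and 1.70 in WT libraries. Glut1Tg replicate 3, the library with the most Cpa3, had the lowest quotient, while WT replicate 4, with the next most Cpa3 (524 CPM), had 1.62. The quotient of Glut1Tg replicate 3 was the only one under 1 by exon union, a position that depends on the gene length used. The exon union is 4824 bases for Got2 and 2539 for Got1, while their longest transcripts have 2530 and 2058 bases.

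Gpt2 (chr8:85492576-85527560, plus strand), the mitochondrial alanine transaminase, was low throughout. It had 2.84, 2.34, 5.87 and 2.11 CPM in Glut1Tg libraries and 4.11, 2.19, 3.57, 1.41 and 0.951 CPM in WT libraries. Glut1Tg replicate 3, the library with the most Cpa3, was highest and WT replicates 4 and 5 lowest. WT replicate 4 had the next most Cpa3, at 524 CPM. Its log2 fold change was 0.26 (SE 0.42, edgeR adjusted p = 0.846), with a fold between 0.625 and 2.30.

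On the proline side, Aldh18a1 (chr19:40550257-40588463, minus strand), the synthase that commits glutamate to proline and ornithine, varied most among the well-measured members. It had 235, 43.8, 60.8 and 51.2 CPM in Glut1Tg libraries and 54.8, 206, 56.1, 87.3 and 92.7 CPM in WT libraries. Glut1Tg replicate 1 and WT replicate 2 were far above the others, with WT replicates 4 and 5 next. The log2 fold change by genotype was 0.29 (SE 0.30, edgeR adjusted p = 0.750), and it was −0.13 without Glut1Tg replicate 1.

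Oat (chr7:132557478-132576398, minus strand), the mitochondrial ornithine aminotransferase, had 121, 93.0, 111 and 91.0 CPM in Glut1Tg libraries and 91.3, 114, 88.5, 66.4 and 65.6 CPM in WT libraries. As with Got1, WT replicates 4 and 5 were lowest and Glut1Tg replicate 1 highest. The log2 fold change was 0.30 (SE 0.20, edgeR adjusted p = 0.681), with a fold between 0.904 and 1.67.

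Pycr1 (chr11:120635712-120643769, minus strand), the mitochondrial reductase that finishes proline, was the scarcest member, with 5 to 36 reads per library. It had 1.17, 0.249, 1.44 and 1.07 CPM in Glut1Tg libraries and 0.877, 0.852, 0.974, 0.235 and 0.476 CPM in WT libraries. Glut1Tg replicate 2 and WT replicate 4 were the lowest, with exact Poisson intervals of 0.0807 to 0.580 CPM and 0.0863 to 0.512 CPM, which cover counting error only and overlap each other. Its log2 fold change was 0.47 (SE 0.54, edgeR adjusted p = 0.786). The Poisson interval of Glut1Tg replicate 3, the highest library, was 1.01 to 1.99 CPM, above those of the lowest pair. The interval of the fold, 0.591 to 3.24, holds the spread between libraries as well as counting error.

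**Figure D3:**
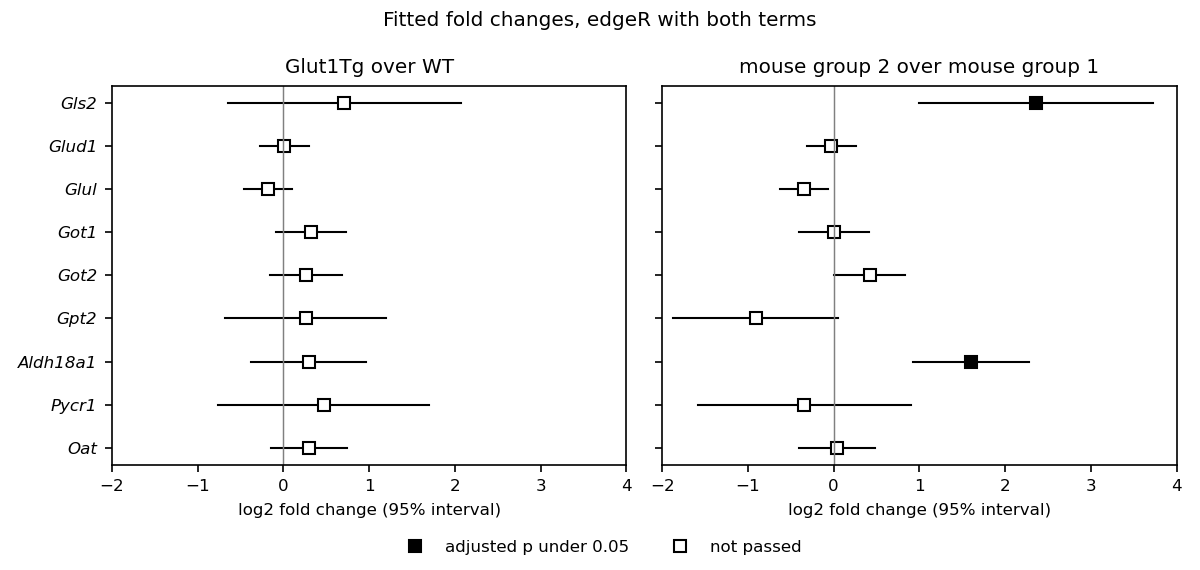
Log2 fold change of each member with its 95% interval, for Glut1Tg over WT on the left and for mouse group 2 over mouse group 1 on the right, with filled squares for an edgeR adjusted p under 0.05. Every genotype interval includes 0, while between mouse groups Aldh18a1 and Gls2 are filled and lie above 0.

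The second comparison followed the mouse group label in the same fit. Aldh18a1 and Gls2 were higher in mouse group 2, by 3.03-fold and 5.13-fold, and no other member passed the test. That is 2 of 9 members called, both higher, where 24.1% of all genes were called (13.1% higher and 11.0% lower), so the count of members is near the background. At an unadjusted p under 0.05 there were 4 members, beside 39.4% of all genes. Members whose mouse groups did not overlap in CPM were Aldh18a1, higher in mouse group 2, and Glul, lower in it, beside 21.8% of all genes.

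Aldh18a1 averaged 155 ± 76.2 CPM in mouse group 2 and 53.35 ± 6.36 CPM in mouse group 1 (SD, n = 4 and 5). The log2 difference was 1.60 (SE 0.30, edgeR adjusted p = 0.00742), and its lowest library of mouse group 2, at 87.3 CPM, was above the highest of mouse group 1, at 60.8 CPM. The difference was smaller without the pair with the most Mki67: without Glut1Tg replicate 1 and WT replicate 2 the log2 difference was 0.71 (edgeR adjusted p = 0.0647), where 1.38% of genes were called higher and 2.36% lower. Without Glut1Tg replicate 1 alone it was 1.203 (adjusted p = 0.0983), and within WT alone 1.21 (adjusted p = 0.118), where 2.10% of genes were called higher and 3.96% lower. With Glut1Tg replicate 3 left out as well as that pair, a fit chosen after seeing the data, it was 0.71 with an edgeR adjusted p of 0.00515, where 9.47% of genes were called higher and 12.4% lower. Without Glut1Tg replicate 1 the mouse group term rests on WT libraries alone, so these fits share their libraries and are not separate support for each other. The part of dividing cells in this difference was not tested.

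Gls2 averaged 3.24 ± 2.75 CPM in mouse group 2 and 0.675 ± 0.231 CPM in mouse group 1, a log2 difference of 2.36 (SE 0.61, edgeR adjusted p = 0.0231). The high values were those of the pair with the most Mki67, while the other 2 libraries of mouse group 2 had 0.745 and 1.13 CPM and mouse group 1 reached 1.04 CPM. Without that pair the log2 difference was 0.50 (edgeR adjusted p = 0.641), and without Glut1Tg replicate 1 alone it was 1.69 (adjusted p = 0.262). Leaving out 1 of Glut1Tg replicates 2 and 4 or WT replicates 1, 2 and 3 moved its adjusted p to between 0.0509 and 0.0615.

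Glul averaged 162 ± 22.7 CPM in mouse group 2 and 197 ± 10.9 CPM in mouse group 1, with a log2 difference of −0.35 (SE 0.12, edgeR adjusted p = 0.0711). Each library of mouse group 2, at most 178 CPM, was under each of mouse group 1, at least 182 CPM. DESeq2 gave −0.34 with an adjusted p of 0.0331, where it called 17.4% of genes higher and 14.9% lower. Gpt2 averaged 1.85 ± 0.835 CPM in mouse group 2 and 3.60 ± 1.52 CPM in mouse group 1, a log2 difference of −0.91 (SE 0.43, edgeR adjusted p = 0.146). Got2 averaged 167 ± 49.1 CPM in mouse group 2 and 130.4 ± 15.6 CPM in mouse group 1 (edgeR adjusted p = 0.125).

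Got1 and Oat had close means in the full set. Got1 averaged 55.2 ± 17.7 CPM in mouse group 2 and 58.4 ± 4.46 CPM in mouse group 1, and Oat 91.7 ± 29.9 CPM in mouse group 2 and 94.9 ± 9.002 CPM in mouse group 1. Mouse group 2 was split, with the Mki67-rich pair at its top and WT replicates 4 and 5 at its bottom. In the fit without Glut1Tg replicates 1 and 3 and WT replicate 2, chosen after seeing the data, 4 members were called, Aldh18a1 higher and Got1, Oat and Gpt2 lower in mouse group 2, the last 3 with log2 differences of −0.45 (edgeR adjusted p = 0.0295), −0.43 (0.0180) and −1.68 (0.00886). In that fit 9.47% of all genes were called higher and 12.4% lower. The fit without Glut1Tg replicate 1 and WT replicate 2 gave near-equal log2 differences and called none of these 3, with −0.45 for Got1 (edgeR adjusted p = 0.128), −0.43 for Oat (0.139) and −1.69 for Gpt2 (0.132). Within WT alone the adjusted p-values were 0.525 for Got1, 0.764 for Oat and 0.0920 for Gpt2. With genotype as a term, the mouse group difference in the first 2 of these fits is WT replicates 4 and 5 against WT replicates 1 and 3 only.

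Whether the genotype difference itself differed between mouse groups was tested with an interaction term. It called 0.00% of genes (0 of 14817), with 5.30% at an unadjusted p under 0.05. For the members, 0 were called and 0 had an unadjusted p under 0.05, with edgeR adjusted p-values between 0.741 and 0.854. DESeq2 called 6 genes in all. Mouse group 2 holds 1 Glut1Tg library, so this term rests on that library.

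The patterns of members across libraries were then set side by side, as the root mean square (RMS) difference of log2 CPM after centring each gene on its mean over the 9 libraries. This is a description, with no test, of points that share 9 libraries. The members' own RMS about their means ran from 0.118 for Glud1, 0.196 for Glul, 0.280 for Got1, 0.295 for Oat and 0.311 for Got2 to 0.723 for Gpt2, 0.785 for Pycr1, 0.830 for Aldh18a1 and 1.23 for Gls2. Of 36 pairs of members, Got1 and Oat were the closest, at 0.0766, and the next pair, Glud1 and Got1, was at 0.228. The quotient of Oat over Got1 per kb therefore stayed between 1.69 and 1.83 in Glut1Tg libraries and between 1.64 and 1.98 in WT libraries. Their promoter windows, printed above, differ in the searched letters: Got1 held the TGATGNAA pattern and Oat did not.

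**Figure D4:**
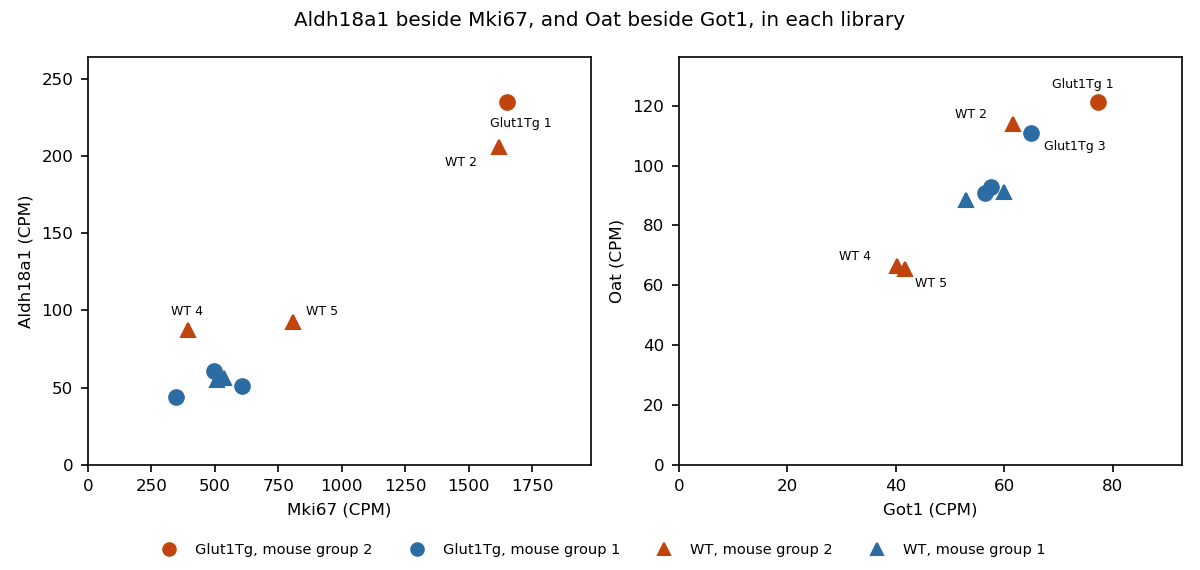
Left, Aldh18a1 against Mki67, and right, Oat against Got1, all in CPM, with 1 point per library, circles for Glut1Tg, triangles for WT and mouse group by colour. Glut1Tg replicate 1 and WT replicate 2 stand alone at the top for Aldh18a1 and Mki67, while Oat and Got1 run together, with WT replicates 4 and 5 lowest.

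The proline genes were set against each other as quotients. Aldh18a1 over Oat per kb was 1.12, 0.273, 0.318 and 0.326 in Glut1Tg libraries, against 0.348, 1.05, 0.367, 0.762 and 0.819 in WT libraries. By exon union, Glut1Tg replicate 1 and WT replicate 2 had more Aldh18a1 than Oat, and the other 7 libraries had less. The quotient of 1.05 in WT replicate 2 is close to 1, and with coding lengths in place of the exon union the 2 genes were about level there. Aldh18a1 over Pycr1 per kb ranged between 40.9 and 193 in Glut1Tg libraries and between 55.6 and 359 in WT libraries. The highest of these, in WT replicate 4, rests on 6 reads of Pycr1, and that of Glut1Tg replicate 2, 170.1, on 5 reads, with the wide counting intervals given above for Pycr1. Gls2 and Aldh18a1, both high in that pair of libraries, differed by an RMS of 0.500, and Gls2 and Gpt2 were the least alike members, at 1.43.

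**Figure D5:**
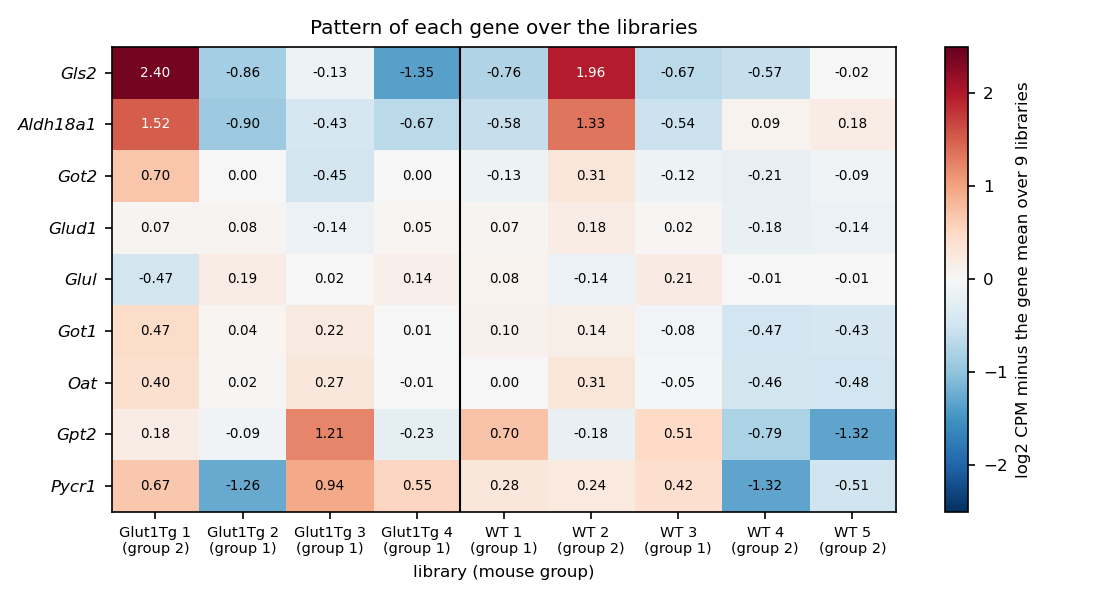
Log2 CPM of each member (rows) in each library (columns) minus the gene's mean over the 9 libraries, Glut1Tg left of WT, with the value in each cell. Glut1Tg replicate 1 and WT replicate 2 are high for Gls2 and Aldh18a1 and low for Glul, and WT replicates 4 and 5 are low for Got1, Oat and Gpt2.

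Across named genes with a mean of at least 10 CPM, the gene nearest to Oat was Got1 itself, at an RMS of 0.0766, followed by Qrsl1 at 0.0801. For Got1 the nearest were Psmd6 (0.0638) and Nup54 (0.0753). Got2 was nearest to Slc39a14 (0.0547) and Fam120a (0.0740), Glud1 to Pdcl (0.0495) and Mob1a (0.0515), and Glul to Rbms2 (0.0603) and Aspscr1 (0.0656). The distances were larger for the members that varied more themselves. Aldh18a1 was nearest to Tubg1 (0.124) and Itpripl1 (0.131), Gls2 to Slc16a3 (0.245) and Chaf1a (0.305), Gpt2 to Mrto4 (0.317) and Gnl3 (0.335), and Pycr1 to Orc6 (0.451) and Traip (0.483).

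A set of 6 lists of other genes around the members gave 53 tested genes of 59. By genotype, 0 of the 53 were called and 4 had an unadjusted p under 0.05, 41 were positive, and the median log2 fold change was 0.21, beside 0.02 over all genes. Without Glut1Tg replicate 1, 35 were positive with a median of 0.08, beside 47.5% and −0.02 over all genes. Single lists moved by different amounts without it. The genes that use the amide of glutamine then had 4 of 10 positive with a median of −0.025. Arginine, ornithine and polyamine genes had 5 of 10 with −0.0030, and the carriers 7 of 10 with 0.07. Other transaminases and glutamate enzymes had 6 of 9 with 0.09, and the oxoglutarate and malate-aspartate neighbours 6 of 7 with 0.08. The other proline genes rose, from 5 of 7 with 0.21 to 7 of 7 with 0.24. By mouse group, 11 were called higher and 3 lower in mouse group 2, beside the 13.1% and 11.0% of all genes. Without Glut1Tg replicate 1, 1 was called higher and 0 lower, where 651 genes were called in all, and the median log2 difference by mouse group of the 53 was 0.20, beside 0.30 with it. The contrast then rests on 3 against 2 WT libraries.

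Of the glutamine and glutamate carriers, 9 of 10 were positive by genotype (median 0.26) and 2 were called higher in mouse group 2. Slc1a5, a main glutamine carrier of T cells, averaged 219 ± 67.9 CPM in Glut1Tg and 219.6 ± 30.8 CPM in WT. Slc38a2, which also carries glutamine, averaged 199 ± 17.5 CPM in Glut1Tg and 216 ± 44.8 CPM in WT. Of the genes that use the amide of glutamine, 7 of 10 were positive (median 0.35) and 2 were called higher in mouse group 2. Ctps2, a CTP synthase, averaged 123 ± 24.6 CPM in Glut1Tg and 146 ± 19.2 CPM in WT (log2 fold change −0.37, edgeR unadjusted p = 0.0432, adjusted p = 0.681).

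Of the other transaminases and glutamate enzymes, 7 of 9 were positive (median 0.11), and in mouse group 2 there were 3 called higher and 1 lower. Gclc, the catalytic subunit of the first enzyme of glutathione synthesis, averaged 107 ± 32.7 CPM in Glut1Tg and 90.7 ± 17.3 CPM in WT. By mouse group it averaged 78.2 ± 2.16 CPM in mouse group 2 and 114 ± 23.2 CPM in mouse group 1 (log2 difference −0.52, edgeR adjusted p = 0.0458). Its partner Gclm averaged 77.7 ± 40.3 CPM in Glut1Tg and 58.6 ± 12.6 CPM in WT.

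Of the other proline genes, 5 of 7 were positive by genotype (median 0.21), with 2 called higher and 1 lower in mouse group 2. P4ha1, a subunit of the enzyme that hydroxylates proline in collagen, was lower in mouse group 2, at 69.6 ± 10.3 CPM against 105.6 ± 15.9 CPM in mouse group 1 (log2 difference −0.52, edgeR adjusted p = 0.0317). It averaged 104 ± 21.3 CPM in Glut1Tg and 78.4 ± 18.9 CPM in WT.

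Of the genes of arginine, ornithine and polyamines, 6 of 10 were positive (median 0.12), and 1 was called lower in mouse group 2. Odc1, which turns ornithine into putrescine, averaged 419 ± 91.2 CPM in Glut1Tg and 323 ± 96.4 CPM in WT. Ass1, of arginine synthesis, averaged 309 ± 42.7 CPM in Glut1Tg and 295 ± 63.2 CPM in WT. Of the 7 oxoglutarate and malate-aspartate neighbours, 7 were positive (median 0.21), and 2 were called higher in mouse group 2. Mdh2, the mitochondrial malate dehydrogenase, averaged 269 ± 80.3 CPM in Glut1Tg and 224 ± 44.8 CPM in WT, and by mouse group 280.2 ± 73.6 CPM in mouse group 2 and 215 ± 39.3 CPM in mouse group 1 (log2 difference 0.51, edgeR adjusted p = 0.0444). The highest libraries of Mdh2 were Glut1Tg replicate 1 (377 CPM) and WT replicate 2 (295 CPM). WT replicates 4 and 5, at 238 and 210 CPM, lay within the range of mouse group 1, 186 to 283 CPM. Mdh1, the cytosolic counterpart of Mdh2, averaged 237 ± 37.5 CPM in Glut1Tg and 228 ± 35.1 CPM in WT.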

How the data were processed

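RNA was extracted with RNeasy Plus, made into libraries with the TruSeq Stranded mRNA kit and sequenced as paired ends on a HiSeq, per the labels' protocols. The submitters' processing notes name bcl2fastq, TopHat2, featureCounts and DESeq2 with the mm10 build; the sources used here give neither their versions nor the strand setting of the counting. The authors deposited raw counts per gene and a log2 table. It holds 13700 genes, the same number that reach 5 counts in all libraries. In the deposited log2 table the columns of the 2 WT libraries of mouse group 1 sum to 0 for each gene, and no source used here says how it was made, so it served only as an alternative.

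From the counts, TMM factors, CPM and quasi-likelihood tests were computed over all genes kept by filterByExpr (edgeR 4.0.16, R 4.3.3), with mouse group and genotype as terms and Benjamini-Hochberg adjustment at 0.05 over 14817 genes. DESeq2 1.42.0 and limma 3.58.1 served as alternatives. The log2 CPM values of the likeness measure used a prior count of 2. The fit was tested on simulated data: it called 0% of genes changed 1.5-fold. No 2 libraries agreed within sampling noise. Replicate numbers were not used as pairs, because same-numbered libraries lie in different mouse groups for numbers 1, 2 and 4. Their deviations from a fit with both terms correlated at 0.73, −0.26, −0.09 and −0.13 for numbers 1 to 4. Such deviations cancel out within each genotype and each mouse group. Glut1Tg replicate 1 is the only Glut1Tg library of mouse group 2. Its deviation therefore equals the summed deviations of the WT libraries of mouse group 1, which include WT replicate 1. The 0.73 is thus partly built in by the design, and these correlations cannot decide whether numbers mark pairs. Gene positions and exon lengths came from GENCODE M21 on GRCm38.

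The members, gene lists and tests were chosen with earlier results of these data known. The text names the 9 members, the 2 genes of highest CPM in each list, the 2 nearest genes to each member and Slc2a1; 2 list genes that this rule took are not reported here.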

Additional observations from a re-analysis of the deposited data

Results flagged for a closer look

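Within each genotype, the highest and the lowest library of each member were checked against Dixon's 95% critical value, which compares the gap to the nearest library with the group's whole range. Of 18 groups checked, 6 had such a library. The chance rate of about 1 in 20 is for libraries of 1 population, and each genotype here mixes mouse groups. Glut1Tg replicate 1 is the only Glut1Tg library of mouse group 2, so its flags cannot be told apart from that label. Of the 6, 5 were in Glut1Tg replicate 1 or WT replicate 2, the 2 libraries apart on the first principal component: Gls2 at 6.39 CPM and Aldh18a1 at 235 CPM in Glut1Tg replicate 1, and Gls2 at 4.71 CPM, Aldh18a1 at 206 CPM and Got2 at 177 CPM in WT replicate 2. The other was Glud1 at 346 CPM in Glut1Tg replicate 3, the lowest Glut1Tg library, although WT replicate 4 was lower still, at 336 CPM. The 9 members share these libraries, so the flags are not independent of each other.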

How the results depend on the processing

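All values here are log2 fold changes unless counts of called genes are named, and the cause of each change was not tested. No member was called by genotype under any alternative. By genotype, 1 gene was called with edgeR, against 2 with no filter on low counts, 7 with DESeq2, and 0 with the replicate block, without Glut1Tg replicate 1 and WT replicate 2 (the outlying pair), within mouse group 1 alone and with limma on the deposited log2 table. The genotype sign of Glud1 turned with DESeq2's size factors (−0.0045), DESeq2 (−0.0045), the replicate block (−0.023) and the log2 table (−0.0091), and that of Aldh18a1 with no mouse group term (−0.025). Without the outlying pair, genotype values were −0.018 for Gls2, −0.078 for Glud1, −0.039 for Got2, −0.20 for Gpt2, −0.13 for Aldh18a1 and −0.030 for Pycr1. Within mouse group 1 alone they were −0.055 for Glud1, −0.018 for Got2, −0.16 for Gpt2 and −0.10 for Aldh18a1. By mouse group, 3576 genes were called with edgeR, against 561 without the outlying pair, 790 within WT alone and 0 with the replicate block. The signs by mouse group turned for Glud1 with no filter (0.012) and for Got1 with limma-voom (−0.011). Without the outlying pair they turned for Got1 (−0.45), Got2 (−0.0083) and Oat (−0.43), and within WT alone for Got1 (−0.24) and Oat (−0.14), where Pycr1 was too low to be tested. With Glut1Tg replicates 1 and 3 and WT replicate 2 left out, a choice made after seeing the data, 14 genes were called by genotype, with −0.45 for Gls2, 0.0033 for Glul, −0.80 for Gpt2, −0.23 for Aldh18a1 and −0.44 for Pycr1, and the mouse group values turned for Got1 (−0.45), Got2 (−0.0075) and Oat (−0.43). Replicate numbers share only a number here. With the replicate block, Pycr1 had 0.091 by mouse group, Aldh18a1 1.78 (adjusted p = 0.0538) and Gls2 2.63 (adjusted p = 0.0588). The interaction called 0 genes with edgeR and 6 with DESeq2.

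Leaving out each library in turn gave 1 to 2 genes called by genotype, 651 (without Glut1Tg replicate 1) to 4575 (without Glut1Tg replicate 3) by mouse group, and 0 to 140 (without WT replicate 2) for the interaction, which could not be fitted without Glut1Tg replicate 1. Genotype values then ranged between −0.017 and 1.099 for Gls2, −0.078 and 0.045 for Glud1, −0.29 and −0.06 for Glul, 0.05 and 0.40 for Got1, −0.039 and 0.36 for Got2, −0.20 and 0.45 for Gpt2, −0.13 and 0.41 for Aldh18a1, −0.032 and 0.75 for Pycr1, and 0.10 and 0.36 for Oat; each lowest value but that of Glul came without Glut1Tg replicate 1. Mouse group values ranged between 1.69 and 2.64 for Gls2, −0.090 and 0.020 for Glud1, −0.44 and −0.20 for Glul, −0.25 and 0.10 for Got1, 0.14 and 0.51 for Got2, −1.35 and −0.70 for Gpt2, 1.203 and 1.76 for Aldh18a1, −0.83 and −0.11 for Pycr1, and −0.14 and 0.13 for Oat. Gls2, Gpt2 and Pycr1 had the fewest reads, 12 to 169, 26 to 147 and 5 to 36 per library. For each of them the exact Poisson intervals of the lowest and the highest library, which cover counting error only, did not overlap.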
